A study of Homo sapiens with 6 samples.

Results

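Breast lineage, keratin and stemness markers were followed after knockdown of LSD1 in MDA-MB231, an established cell line from a triple-negative breast tumor. The set was a list of 36 gene symbols among the 23368 symbols of the count table. They were 14 luminal members, 11 basal members, 7 stem-like members and 4 others, namely a pair of further keratins and a pair of luminal progenitor markers. All 36 were in the table. The samples were 2 RNA-seq libraries of cells given siL1, 2 of cells given siL2 and 2 of cells given the control siRNA (siControl). All cells grew in serum-containing DMEM and were transfected with the reagent interferin. The siL1 and siL2 reagents are different siRNAs against LSD1, a demethylase of histone lysines that is the product of the gene KDM1A. The siRNA sequences and the time after transfection are not given in the sources used here, and all libraries come from a single cell line. Whether the paired libraries of a group stem from separate cultures is not stated in the labels, and the p-values below cover only the spread within these library pairs, which may be technical.

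Breast epithelium holds an inner layer of luminal cells and an outer layer of basal, contractile cells. Many luminal cells depend on the estrogen receptor and on the transcription factors GATA3 and FOXA1. Luminal cells pair the simple keratins KRT8 and KRT18 into filaments. Basal cells use KRT5 and KRT14 under the control of TP63. Breast cancer lines are sorted by the same genes, and cells with much CD44, little CD24 and active aldehyde dehydrogenases have been described as stem-like. LSD1 removes methyl groups from histone H3 and acts with corepressors such as CoREST, and the repressor SNAI1, which binds the E-box CACCTG, recruits it to promoters.

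Levels are CPM, counts scaled by the library total, and totals ran from 22047738 to 26765079 counts. The targeted gene KDM1A had 27.7 and 28.1 CPM in the siL1 libraries and 17.4 and 18.1 CPM in the siL2 libraries, against 158 and 165 CPM with siControl, with log2 fold changes of -2.53 for siL1 and -3.19 for siL2 (adjusted p = 1.09e-11 and 2.16e-12). Markers that define mesenchymal-like basal lines were present in every library: VIM averaged 3354 CPM with siL1, 3637 CPM with siL2 and 3573 CPM with siControl, and CD44, MSN, CAV1, CAV2 and AXL were all tested. Of 10 blood cell markers, HBB and HBA1 had no count in any library, PTPRC had at most 1 count, and only CD68 passed the count filter. The 10 summed to 224 and 207 CPM in siL1 cells and 269 and 272 CPM in siL2 cells, against 213 and 223 CPM in siControl cells, nearly all of it CD68, which rose by 0.31 on the log2 scale with siL2 (adjusted p = 8.3e-05) and did not pass with siL1 (-0.02, adjusted p = 0.757). Of 10 fibroblast and endothelial markers, DCN and LUM had no count. Their summed level was 24.3 and 25.2 CPM in siL1 cells and 16.8 and 14.9 CPM in siL2 cells, against 9.66 and 9.27 CPM in siControl cells. Most of this sum was COL1A1 and PDGFRB. COL1A1 had means of 12.2 CPM with siL1, 8.71 CPM with siL2 and 5.91 CPM with siControl. PDGFRB had means of 7.19, 3.73 and 0.83 CPM in the same order. With siL1, 4 of the 6 tested rose and 0 fell, and with siL2 3 rose and 0 fell. These are 66.7% and 50% of the 6, where 50.4% and 45.8% of all tested genes passed the threshold given below. The 4 include PECAM1, whose control libraries were below the count filter (0.136 and 0.127 CPM) and which entered the test through knockdown libraries alone, so that a rise was built into its test. The part of either marker group in the results below was not tested.

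Changes are log2 fold changes from edgeR's quasi-likelihood test over 13322 genes, with Benjamini-Hochberg adjusted p-values and a threshold of 0.05. Against siControl, siL1 moved 50.4% of all tested genes past the threshold (24.7% higher, 25.7% lower) and siL2 moved 45.8% (22.6% higher, 23.3% lower). Of the 36 members, 19 had enough counts for the test. With siL1, 7 of them rose and 4 fell, and with siL2, 4 rose and 7 fell, so 57.9% of the tested members passed in each comparison, near the share over all genes. The count for siL1 includes KRT81, which entered the test only through its siL1 libraries. The median log2 fold change of the tested members was -0.04 with siL1 and -0.06 with siL2, against -0.014 and -0.004 over all genes.

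The other 17 members were silent or nearly so. TFF3, AGR2, KRT5, KRT6A, KRT6B, PROM1 and ALDH1A1 had 0 counts in all 6 libraries, which allows levels of up to 0.112 to 0.136 CPM by counting error alone. In all, 14 of the 17 had at most 3 counts in every library, including the hormone receptor genes ESR1 and PGR, the estrogen-induced trefoil factor TFF1, the basal master factor TP63, KRT14, and the progenitor markers ELF5 and KIT. KRT19, a simple keratin, had 2 and 2 counts with siL1 and 4 and 1 with siL2, against 0 and 0 with siControl. The ETS factor SPDEF had 4 and 4 counts with siL1 and 3 and 8 with siL2, against 2 and 1 with siControl. KRT17 had 0 and 1 counts with siL1 and 2 and 1 with siL2, against 0 and 4 with siControl. No library had more than 2 counts of ESR1, PGR, KRT5, KRT6A, KRT6B or KRT14, so expression of the hormone receptors and of these canonical basal keratins was not detectable above the floor at this depth, with or without knockdown. KRT6A, KRT6B, KRT14 and KRT17 share most of their sequence with near-identical copies, and their counts are uncertain for that reason.

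**Figure D1:**
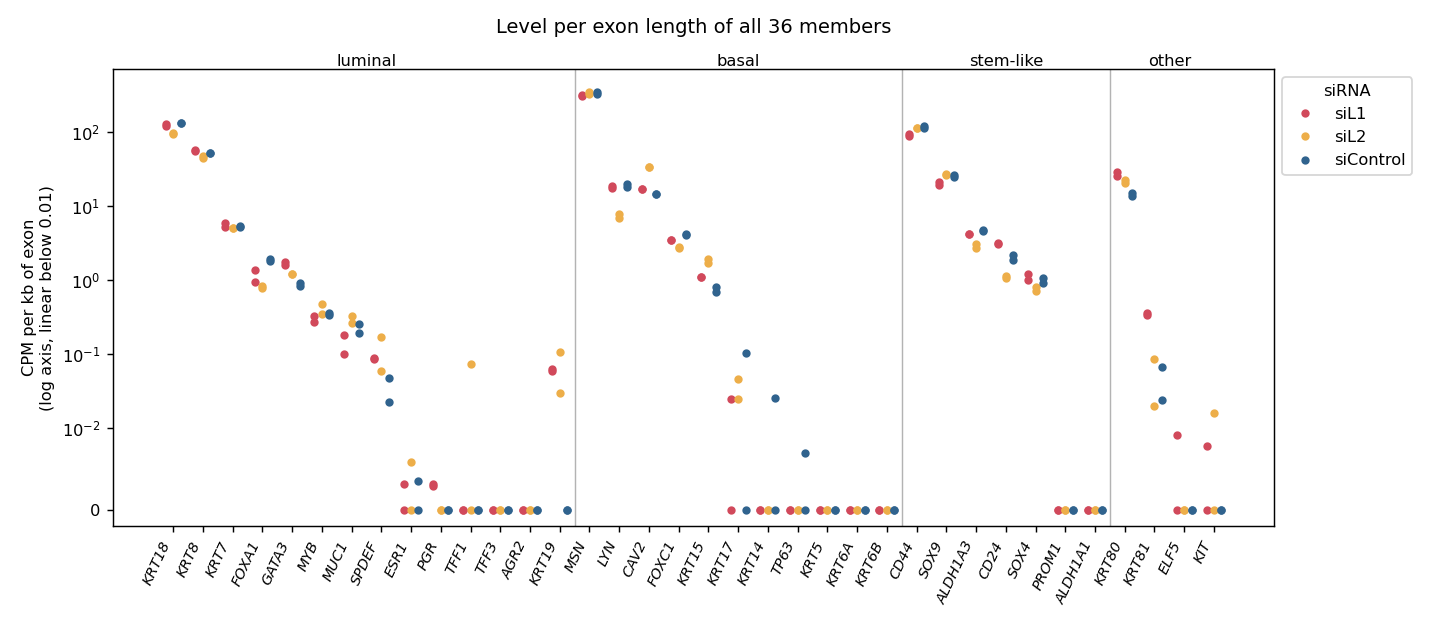
Level of all 36 members in each library as CPM per kb of merged exon (vertical axis, logarithmic, linear below 0.01), with 2 points per group for siL1, siL2 and siControl, ordered within each class by the siControl mean. MSN, KRT18 and CD44 stand highest at 339, 132 and 116 CPM per kb with siControl, and 7 members lie at 0 in all 6 libraries.

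Divided by merged exon length, the order of levels with siControl was MSN at 339 CPM per kb, KRT18 at 132, CD44 at 116, KRT8 at 51.7 and SOX9 at 25.7. LYN stood at 18.7, KRT80 at 14.3, CAV2 at 14.2, KRT7 at 5.19, ALDH1A3 at 4.63 and FOXC1 at 4.02. CD24 at 2.0, FOXA1 at 1.87, SOX4 at 0.967, GATA3 at 0.858 and KRT15 at 0.737 CPM per kb followed, and MYB at 0.344, MUC1 at 0.221 and KRT81 at 0.0447 CPM per kb were lowest among the tested members. The control libraries overlapped between the neighbours KRT80 and CAV2, between CD24 and FOXA1, and between SOX4 and GATA3. Exon lengths came from a later annotation than the counts, and the merged length of KRT8, 4581 bases, exceeds its longest single transcript of 2437 bases, so its place is approximate. KRT15 was divided by 5237 bases, the length of its longest transcript, although its 3' UTR has only 280 bases. Which transcript was expressed was not examined, so the place of KRT15 is approximate too.

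The luminal transcription factors were present at low levels and did not move together. GATA3, which specifies luminal cells, had 4.93 and 5.4 CPM in siL1 cells and 3.7 and 3.69 CPM in siL2 cells, against 2.81 and 2.54 CPM in siControl cells. All 4 knockdown libraries were above both control libraries. GATA3 rose with both siRNAs, by 0.96 on the log2 scale for siL1 (SE 0.159, adjusted p = 0.000277 in edgeR) and by 0.46 for siL2 (SE 0.167, adjusted p = 0.0372). The siL2 call did not hold with DESeq2 (adjusted p = 0.184) or without either siL2 library or either control library (adjusted p = 0.0694 to 0.186). In bulk RNA, fewer cells of a type and less RNA per cell cannot be told apart, here and for every gene below.

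FOXA1, the pioneer factor that opens chromatin for the estrogen receptor, went the other way. It had 3.83 and 2.64 CPM in siL1 cells and 2.39 and 2.19 CPM in siL2 cells, against 5.53 and 5.16 CPM in siControl cells. The groups did not overlap, and the siL1 libraries lay further apart from each other than those of the other groups. FOXA1 fell by 0.72 with siL1 (SE 0.179, adjusted p = 0.00455) and by 1.22 with siL2 (SE 0.188, adjusted p = 0.000171). Without siL1 replicate 2 the siL1 change was -0.48 and not past the threshold (adjusted p = 0.0618). MYB, a transcription factor that the estrogen receptor activates, had 1.49 and 1.26 CPM in siL1 cells and 2.2 and 1.58 CPM in siL2 cells, against 1.54 and 1.65 CPM in siControl cells, and passed in neither comparison (adjusted p = 0.512 with siL1 and 0.424 with siL2).

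The 250 bases before the FOXA1 start are shown because FOXA1 fell with both siRNAs and because this stretch holds an E-box of the SNAI1 type. Capitals mark CACCTG or its reverse complement CAGGTG, and the GC box GGGCGG or CCGCCC. The sequence is from RefSeq, build GRCh38.p14, and is written in the direction of transcription.
FOXA1 promoter, chr14:37595250-37595499, minus strand: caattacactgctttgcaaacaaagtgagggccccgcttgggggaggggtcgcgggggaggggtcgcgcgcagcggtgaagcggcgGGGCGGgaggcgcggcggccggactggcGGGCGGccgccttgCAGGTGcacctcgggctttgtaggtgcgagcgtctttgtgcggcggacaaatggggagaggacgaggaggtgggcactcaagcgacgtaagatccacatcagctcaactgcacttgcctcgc
CACCTG, searched on both strands, was in 17.5% of 35116 promoter stretches of this length and in 4 of 22 belonging to tested members, those of FOXA1, CD24 and MUC1. GGGCGG was in 42.6% of all and in 17 of those 22. Only 12 of the 19 tested members had a promoter in the table, and a match says nothing about binding.

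Among luminal surface and secreted proteins, MUC1 was the only member tested. This membrane mucin had 0.425 and 0.771 CPM in siL1 cells and 1.12 and 1.38 CPM in siL2 cells, against 1.09 and 0.804 CPM in siControl cells. Both siL1 libraries were below and both siL2 libraries above the control range, but neither comparison with the control passed (log2 fold change -0.64, adjusted p = 0.169 with siL1, and 0.40, adjusted p = 0.32 with siL2). These values rest on 10 to 34 counts per library.

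KRT8 and KRT18 were among the most abundant members. KRT8, the type II partner, had 255 and 261 CPM in siL1 cells and 214 and 203 CPM in siL2 cells, against 236 and 238 CPM in siControl cells. It was above the control in both siL1 libraries and below it in both siL2 libraries. With siL1, KRT8 rose by 0.13 (SE 0.0394, adjusted p = 0.0154). With siL2, it fell by 0.19 (SE 0.0396, adjusted p = 0.00165). The siL1 call did not hold without siL1 replicate 2 (adjusted p = 0.112), siControl replicate 1 (0.0634) or siControl replicate 2 (0.0572).

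KRT18, the type I partner, had 243 and 254 CPM in siL1 cells and 191 and 188 CPM in siL2 cells, against 262 and 268 CPM in siControl cells. The siL2 libraries lay lowest, and all 4 knockdown libraries were below both controls. KRT18 fell by 0.49 with siL2 (SE 0.0397, adjusted p = 7.29e-07), and its change of -0.09 with siL1 did not pass (adjusted p = 0.078). Within each library, the counts of KRT8 over those of KRT18 came to 1.05 and 1.03 with siL1 and 1.12 and 1.08 with siL2, against 0.902 and 0.885 with siControl. This ratio needs no scaling between libraries and was higher in all 4 knockdown libraries than in both controls. It was chosen after the values were seen and was not tested. KRT18 shares 68.8% of its longest transcript at 95% identity or more with the pseudogene KRT18P11, so reads may have been divided between them. No such copy was found for KRT8, but only its longest transcript of 2437 bases was searched. Its merged exons span 4581 bases, so KRT8 reads may have been divided as well. KRT7, a further simple keratin, had 10.3 and 8.97 CPM in siL1 cells and 8.78 and 8.77 CPM in siL2 cells, against 8.94 and 9.27 CPM in siControl cells, and passed in neither comparison (adjusted p = 0.575 and 0.706).

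Of 6 basal keratins only KRT15 was expressed above the filter. KRT15, a type I keratin of basal and progenitor cells of stratified epithelia, had 5.7 and 5.68 CPM in siL1 cells and 8.82 and 10.1 CPM in siL2 cells, against 4.13 and 3.6 CPM in siControl cells. The order siL2, siL1, siControl held in every library. It rose by 0.57 with siL1 (SE 0.15, adjusted p = 0.00706) and by 1.29 with siL2 (SE 0.138, adjusted p = 8.49e-06). Without siControl replicate 2 the siL1 change was 0.46 with adjusted p = 0.0639. The basal transcription factor FOXC1 had 13.6 and 13.6 CPM in siL1 cells and 10.6 and 10.9 CPM in siL2 cells, against 16.1 and 15.6 CPM in siControl cells. It was below the control in all 4 knockdown libraries. With siL2 it fell by 0.57 (SE 0.0911, adjusted p = 0.000242), while its change of -0.21 with siL1 did not pass (adjusted p = 0.0634).

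The 3 genes known to be high in basal breast cancer lines behaved differently from one another. CAV2, which assembles with CAV1 into caveolae, had 69.7 and 71 CPM in siL1 cells and 137 and 140 CPM in siL2 cells, against 58.6 and 58.9 CPM in siControl cells. It was above the control in all 4 knockdown libraries and highest with siL2. CAV2 rose by 0.26 with siL1 (SE 0.0479, adjusted p = 0.00054) and by 1.23 with siL2 (SE 0.046, adjusted p = 8.48e-10). CAV1, its partner and chromosomal neighbour, is not a member and was chosen after its values were seen. It fell by 0.17 with siL1 (adjusted p = 0.000941) and rose by 0.16 with siL2 (adjusted p = 0.00151).

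LYN, a kinase of the SRC family, had 109 and 104 CPM in siL1 cells and 44.9 and 40.5 CPM in siL2 cells, against 115 and 106 CPM in siControl cells. The siL2 libraries stood alone, and the siL1 libraries overlapped the controls. LYN fell by 1.37 with siL2 (SE 0.0602, adjusted p = 3.64e-09), the steepest fall of any tested member in either comparison with the control, and its change of -0.04 with siL1 did not pass (adjusted p = 0.569). MSN, the moesin that links membrane proteins to actin, had 1246 and 1186 CPM in siL1 cells and 1381 and 1273 CPM in siL2 cells, against 1375 and 1299 CPM in siControl cells. It fell by 0.13 with siL1 (adjusted p = 0.0178), a call that did not hold without siL1 replicate 2 (0.122) or siControl replicate 1 (0.13), and did not pass with siL2 (-0.02, adjusted p = 0.794). MSN shares 44% of its longest transcript at 95% identity or more with the pseudogene MSNP1.

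**Figure D2:**
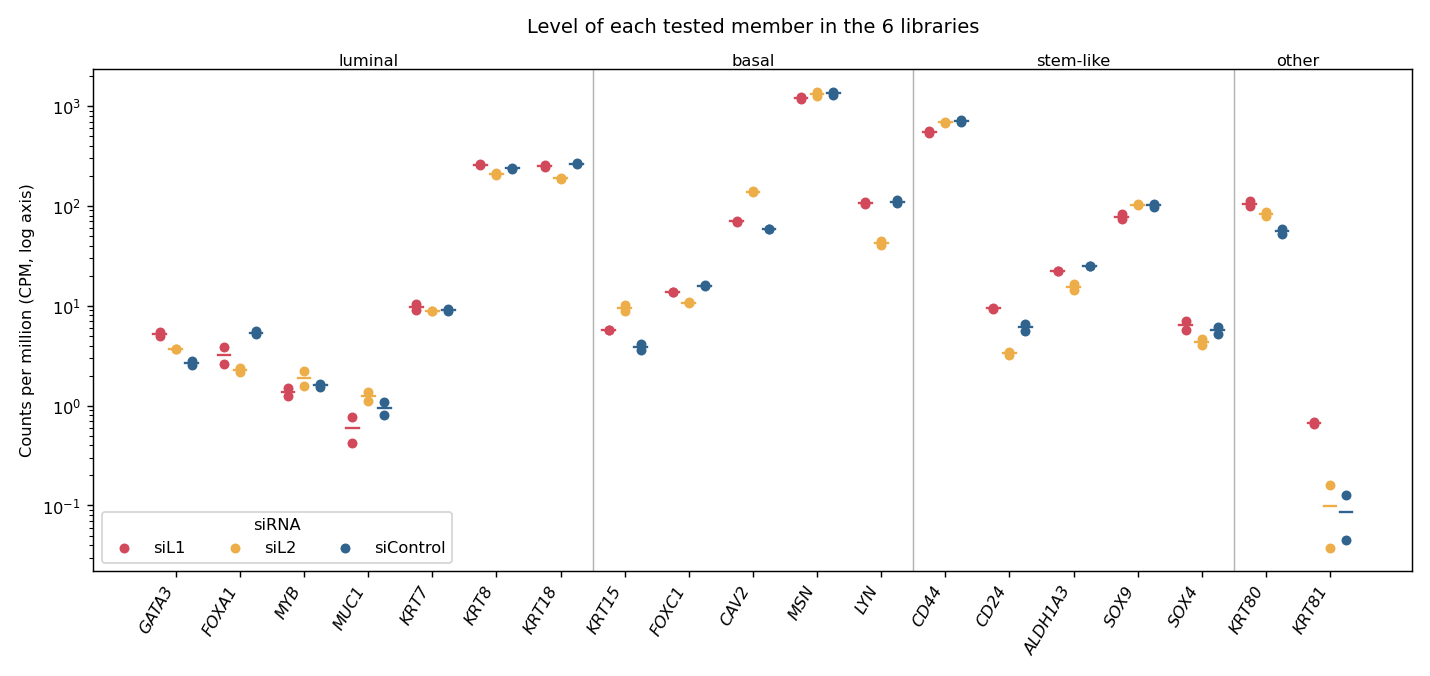
CPM of the 19 tested members in each of the 6 libraries (vertical axis, logarithmic; points are libraries, dashes are group means, n = 2), with siL1, siL2 and siControl from left to right and the classes separated by lines. CAV2 is highest and LYN lowest in the siL2 libraries, and CD24 has its siL1 points above and its siL2 points below siControl.

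The CAV2 sequences are shown because CAV2 rose with both siRNAs and rose most with siL2. The stretch of 250 bases before its first RefSeq start holds 6 GC boxes, in capitals, and no CACCTG on either strand.
CAV2 promoter, chr7:116499488-116499737, plus strand, GRCh38.p14: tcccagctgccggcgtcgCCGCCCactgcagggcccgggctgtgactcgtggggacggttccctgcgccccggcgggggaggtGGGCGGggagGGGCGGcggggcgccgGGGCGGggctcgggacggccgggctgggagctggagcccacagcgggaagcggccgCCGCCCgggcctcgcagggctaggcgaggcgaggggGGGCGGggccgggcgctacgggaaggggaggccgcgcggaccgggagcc
Its 3' UTR of 2420 bases holds words of 7 bases that came from an earlier scan of these same libraries. There, TACATTT and ACATTTA were common among the genes that rose most with either siRNA, ACAGAGC among those that fell most with siL1, and GTTACAA among those that fell most with siL2. The words were searched on the transcript strand, and TACATTT and ACATTTA overlap where both occur as TACATTTA. Capitals mark the word in the following stretches, taken from GENCODE transcripts on build GRCh38, whereas the counts were made on hg19.
CAV2 chr7:116506237-116506265, plus strand, 127 bases past the stop codon: gatgagcaaccACATTTAgaaatgtttat
CAV2 chr7:116506389-116506417, plus strand, 279 bases past the stop codon: gtacaatagtaTACATTTtataatgatga
CAV2 chr7:116508166-116508194, plus strand, 2056 bases past the stop codon: aacattttttaTACATTTggttatgttga
CAV2 chr7:116507641-116507669, plus strand, 1531 bases past the stop codon: cccgcctggcaACAGAGCaagagtctgtc
FOXA1 chr14:37590582-37590610, minus strand, 766 bases past the stop codon: cttgaccgaaaGTTACAAggaccccaacc
CD44 chr11:35231345-35231373, plus strand, 2023 bases past the stop codon: ggttcaaaatgGTTACAAcagcctctacc
Among the 19 tested members, TACATTT was found in 6 (31.6%), ACATTTA in 6 (31.6%), ACAGAGC in 4 (21.1%) and GTTACAA in 2 (10.5%). Over the 11369 tested genes whose annotated 3' UTR reached 50 bases the shares were 26.9%, 22.2%, 17.8% and 9.46%, so the members stood near the background for each word. GTTACAA was in FOXA1, which fell with siL2, and in CD44, which did not pass with siL2. LYN, the member that fell most with siL2, did not hold GTTACAA. Not every match is printed. TACATTT was also in FOXA1, which fell with both siRNAs, and in LYN and CD24, which fell with siL2. ACATTTA was also in CD44 and SOX9, which fell with siL1, and in CD24, which rose with siL1. MYB and SOX4 held both words and passed in neither comparison with the control. ACAGAGC was also in KRT8, which rose with siL1, and in LYN and ALDH1A3, which did not pass with siL1. The words were chosen on these libraries and the siRNA sequences were not known, so the matches are a description only.

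Luminal and basal members were set side by side for each siRNA. With siL1, 2 of 7 tested luminal members rose (GATA3 and KRT8) and 1 fell (FOXA1), with a median log2 fold change of -0.09, and 2 of 5 tested basal members rose (KRT15 and CAV2) and 1 fell (MSN), with a median of -0.04. With siL2, 1 luminal member rose (GATA3) and 3 fell (FOXA1, KRT8 and KRT18), with a median of -0.06, and 2 basal members rose (KRT15 and CAV2) and 2 fell (FOXC1 and LYN), with a median of -0.02. These medians lay close to those of all genes. With siL1, 42.9% of tested luminal and 60% of tested basal members passed, where 50.4% of all tested genes did. With siL2, 57.1% and 80% passed, where 45.8% of all tested genes did. GATA3, the luminal member that rose with siL2, lost its call with DESeq2 and without either siL2 or either control library, which left 0 luminal members higher and 3 lower. MSN, the basal member that fell with siL1, lost its call without siL1 replicate 2 (log2 fold change -0.1) or siControl replicate 1 (-0.09). KRT15, a basal member that rose, lost its siL1 call without siControl replicate 2 (0.46). KRT8, a luminal member that rose, lost its siL1 call without siL1 replicate 2 (0.1), siControl replicate 1 (0.12) or siControl replicate 2 (0.13). FOXA1, the luminal member that fell, lost its siL1 call without siL1 replicate 2 (-0.48). With the replicate number as a block, 2 luminal and 2 basal members rose with siL1, and 2 of each class fell. In all, 7 of 14 luminal and 6 of 11 basal members were below the filter, so these counts speak only for the expressed members.

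**Figure D3:**
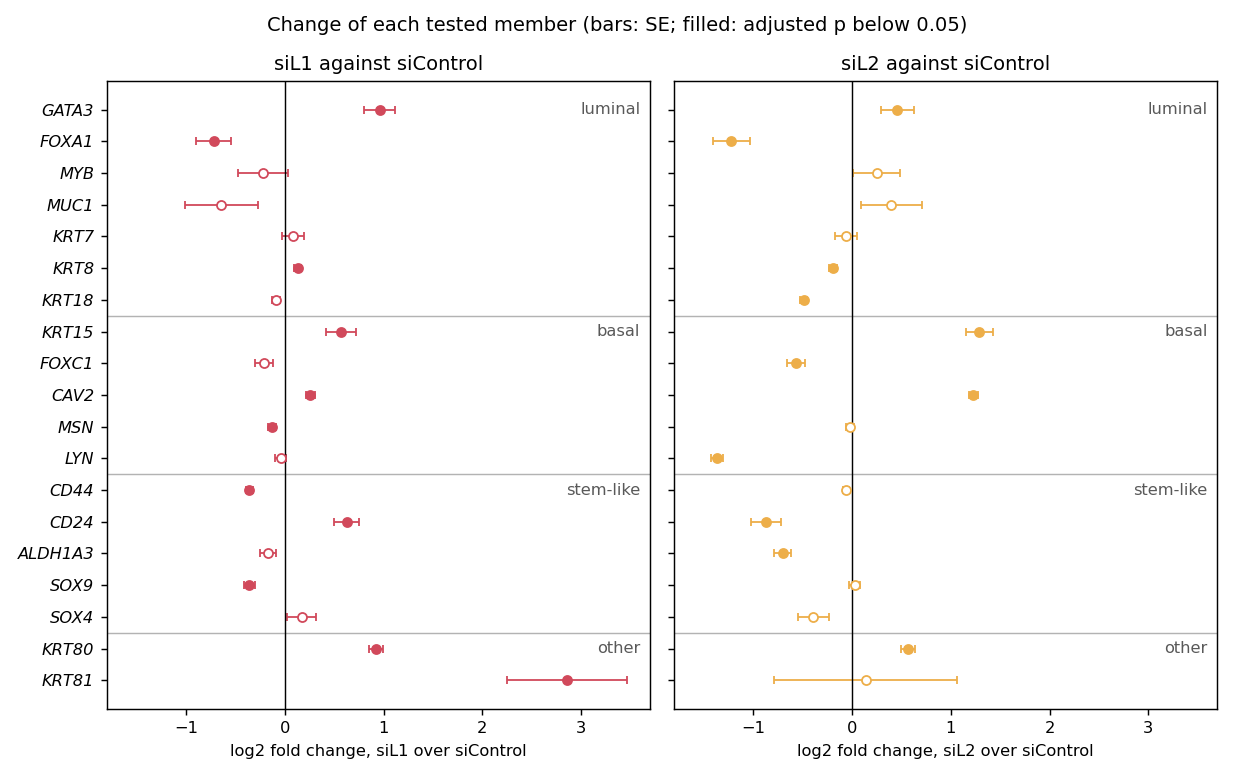
Log2 fold change of the 19 tested members over siControl (horizontal axis) with siL1 on the left and siL2 on the right, with bars of 1 SE and filled points for adjusted p below 0.05, grouped by class from luminal at the top to other at the bottom. Luminal and basal members each spread to both sides of 0, from -0.72 to 0.96 for luminal members with siL1 and from -1.37 to 1.29 for basal members with siL2.

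A further pair of keratins lay outside these classes. KRT80, a type II keratin of epithelial differentiation, had 98.9 and 112 CPM in siL1 cells and 79.8 and 86.2 CPM in siL2 cells, against 52.9 and 58.5 CPM in siControl cells. The groups did not overlap, and KRT80 rose by 0.92 with siL1 (SE 0.0706, adjusted p = 3.93e-07) and by 0.57 with siL2 (SE 0.0713, adjusted p = 3.14e-05). KRT81, a hair keratin also seen in breast cancer lines, had 16 and 16 counts with siL1 and 1 and 4 with siL2, against 1 and 3 with siControl. Only the siL1 libraries carried it through the count filter, so a difference was built into its test (log2 fold change 2.86 with siL1, adjusted p = 0.00168). With siL2 it did not pass (0.14, adjusted p = 0.918). KRT81 shares 69.1% of its longest transcript at 95% identity or more with KRT86, which had 10 and 8 counts with siL1 and 9 and 9 with siL2, against 2 and 7 with siControl. Of all 56 keratin symbols in the table, 33 had no count in any library and 8 were tested. The tested ones that are not members were KRT34, which had means of 2.18 CPM with siL1, 1.48 CPM with siL2 and 1.35 CPM with siControl (log2 fold change 0.69, adjusted p = 0.0195), and KRT10, which did not pass with siL1 (0.17, adjusted p = 0.0682). Neither passed with siL2.

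Among stem-like members, CD44 and SOX9 fell with siL1, ALDH1A3 fell with siL2, and CD24 passed with both in opposite directions. With siL1, 1 of 5 rose and 2 fell, and with siL2, 0 rose and 2 fell, with medians of -0.17 and -0.39. The member that rose with siL1 was CD24, and CD24 was also among those that fell with siL2. Stem-like cells are described as low in CD24, so these counts and medians pool markers of opposite sign. They give no direction for a stem-like state. The 60% and 40% of these 5 that passed compare with 50.4% and 45.8% over all tested genes. CD44, the hyaluronan receptor, had 563 and 541 CPM in siL1 cells and 684 and 687 CPM in siL2 cells, against 723 and 698 CPM in siControl cells. All 4 knockdown libraries were below both controls, and the siL1 libraries lay lowest. It fell by 0.36 with siL1 (SE 0.034, adjusted p = 2.59e-06), and its change of -0.06 with siL2 did not pass (adjusted p = 0.205). CD24, a GPI-anchored surface protein, had 9.31 and 9.49 CPM in siL1 cells and 3.47 and 3.21 CPM in siL2 cells, against 6.62 and 5.59 CPM in siControl cells. The siL1 libraries lay above and the siL2 libraries below both controls. With siL1, CD24 rose by 0.63 (SE 0.127, adjusted p = 0.00114). With siL2, it fell by 0.87 (SE 0.148, adjusted p = 0.000378).

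Counts of CD44 over counts of CD24, the surface pair used to sort stem-like breast cells, came to 60.4 and 57 with siL1 and 197 and 214 with siL2, against 109 and 125 with siControl. The control lay between the siRNAs, with no overlap. The ratio compares counts within a library without correction for gene length, was chosen after the values were seen and was not tested. CD24 shares 9.67% of its longest transcript with the pseudogene CD24P4, so some of its reads may have been divided.

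ALDH1A3, a retinaldehyde dehydrogenase, had 22.3 and 22.2 CPM in siL1 cells and 16.5 and 14.4 CPM in siL2 cells, against 24.9 and 25.3 CPM in siControl cells. The siL2 libraries lay lowest and the siL1 libraries between. It fell by 0.70 with siL2 (SE 0.0843, adjusted p = 2.13e-05), and its change of -0.17 with siL1 did not pass (adjusted p = 0.0998). SOX9, a transcription factor found in mammary progenitors, had 82.4 and 74.1 CPM in siL1 cells and 105 and 102 CPM in siL2 cells, against 104 and 97.5 CPM in siControl cells. The siL1 libraries lay below all others, and the siL2 libraries overlapped the controls. SOX9 fell by 0.36 with siL1 (SE 0.0559, adjusted p = 0.000159) and did not pass with siL2 (0.03, adjusted p = 0.666). SOX4, a related factor, had 6.98 and 5.72 CPM in siL1 cells and 4.6 and 4.06 CPM in siL2 cells, against 6.08 and 5.25 CPM in siControl cells. It passed in neither comparison (adjusted p = 0.368 with siL1 and 0.0596 with siL2).

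The siRNAs were then compared with each other, which tests whether their effects differ. Of the 19 tested members, 16 (84.2%) differed between siL2 and siL1, 6 higher and 10 lower with siL2, where 46.8% of all tested genes differed (23.2% higher, 23.7% lower). Members were chosen with earlier results of these data known, so this share is a description only. The 10 lower ones include KRT81, which entered the test only through its siL1 libraries, so that its difference was built in. All 5 tested basal members and all 5 tested stem-like members were among the 16, and 4 of 7 luminal members. The luminal count was 2 with DESeq2 and 2 without siL2 replicate 2. MSN did not pass with DESeq2 (adjusted p = 0.0549) or without siL1 replicate 2 (0.193) or siL2 replicate 1 (0.308), and SOX4 did not pass without siL1 replicate 1 (0.0948) or siL2 replicate 2 (0.0564). CD24 was lower with siL2 by 1.5 on the log2 scale (SE 0.138, adjusted p = 2.46e-06), a difference between changes of opposite sign. LYN was lower by 1.33 (SE 0.0601, adjusted p = 7.04e-09) and CAV2 higher by 0.97 (SE 0.045, adjusted p = 8.59e-09). CD44 and SOX9 were higher with siL2, by 0.30 (adjusted p = 1.31e-05) and 0.39 (adjusted p = 8.97e-05). FOXA1, MYB and KRT7 were the 3 members that did not pass. FOXA1 was lower with siL2 in both libraries, at -0.50 (SE 0.204, adjusted p = 0.062). GATA3, KRT15, CAV2 and KRT80 passed as higher with both siRNAs, and FOXA1 passed as lower with both. The siL2 call of GATA3 did not hold with DESeq2 (adjusted p = 0.184). These comparisons share the control libraries, and the share of all tested genes that passed in the same direction with both was not counted. The coincidence is therefore given as names alone and says nothing particular about the members.

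Further lineage genes were listed apart from the members. These lists too were chosen with earlier results of these data known, so their counts are a description only. Of 19 tested luminal and epithelial genes of 29 listed, 10 rose and 0 fell with siL1, and 4 rose and 4 fell with siL2, with median log2 fold changes of 0.36 and -0.09. The shares that passed in either direction, 52.6% with siL1 and 42.1% with siL2, were near the 50.4% and 45.8% over all tested genes. With siL1 all that passed were higher, where 24.7% of all tested genes were higher and 25.7% lower. With siL2 the shares over all tested genes were 22.6% higher and 23.3% lower. CCND1, which encodes cyclin D1, had 978 and 1066 CPM in siL1 cells and 538 and 545 CPM in siL2 cells, against 543 and 531 CPM in siControl cells. It rose by 0.93 with siL1 (adjusted p = 4.75e-09) and did not pass with siL2 (0.01, adjusted p = 0.897). The estrogen-regulated zinc transporter SLC39A6 rose by 0.64 with siL1 and fell by 1.01 with siL2 (adjusted p = 5.31e-07 and 2.13e-08). The carbonic anhydrase CA12, another gene tied to estrogen receptor activity, rose by 1.36 with siL1 and fell by 0.69 with siL2 (adjusted p = 3.86e-07 and 0.000675). CLDN7, a tight junction claudin, rose by 0.51 with siL1 and by 1.17 with siL2 (adjusted p = 0.00033 and 2.15e-07).

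Of 25 tested basal, myoepithelial and basal-line genes of 31 listed, 13 rose and 5 fell with siL1, and 14 rose and 1 fell with siL2, with medians of 0.29 and 0.25. The shares that passed were 72% with siL1 and 60% with siL2, where 50.4% and 45.8% of all tested genes passed. Over all tested genes, 24.7% were higher and 25.7% lower with siL1, and 22.6% higher and 23.3% lower with siL2. The 13 include the calponin gene CNN1, chosen after its values were seen, which entered the test only through its siL1 libraries (0.936 and 0.69 CPM), so that a rise was built in. The urokinase gene PLAU had 185 and 202 CPM in siL1 cells and 165 and 179 CPM in siL2 cells, against 112 and 124 CPM in siControl cells, and rose by 0.72 and 0.54 on the log2 scale (adjusted p = 9.05e-07 with siL1 and 1.24e-05 with siL2). The matrix protein gene TGFBI rose by 0.50 with siL1 and by 0.40 with siL2, and the laminin chain gene LAMB3 by 0.41 and 0.36. ANXA1, the phospholipid-binding annexin, fell by 0.17 with siL1 and rose by 0.35 with siL2. The summed fibroblast and endothelial markers given above were also higher with both siRNAs, and their part in this was not tested.

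Of 13 tested stemness genes of 24 listed, 5 rose and 2 fell with siL1, and 1 rose and 6 fell with siL2, with medians of 0.12 and -0.15. The share that passed in either direction was 53.8% with either siRNA, near the 50.4% and 45.8% over all tested genes. By direction, 24.7% of all tested genes were higher and 25.7% lower with siL1, and 22.6% were higher and 23.3% lower with siL2. EZH2, the methyltransferase of Polycomb complex PRC2, fell by 0.55 with siL1 and by 0.45 with siL2 (adjusted p = 1.14e-05 and 5.83e-05). The filament gene NES rose by 0.34 with siL1 and by 0.36 with siL2. The RNA-binding MSI2 fell by 0.40 with siL2 (adjusted p = 0.000591) and did not pass with siL1 (0.15, adjusted p = 0.0987). PROCR, a receptor found on mammary stem cells of mice, rose by 0.25 with siL1 (adjusted p = 0.00519) and did not pass with siL2 (-0.11, adjusted p = 0.191).

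**Figure D4:**
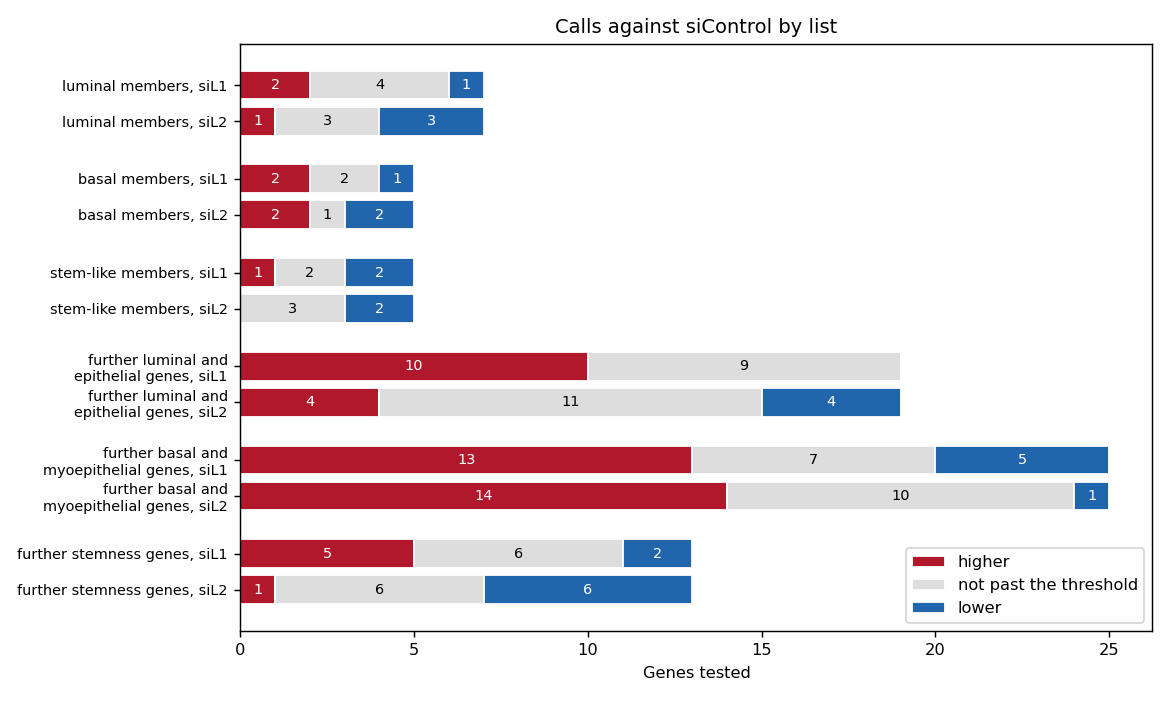
Number of tested genes (horizontal axis) that were higher, not past the threshold or lower against siControl at adjusted p below 0.05, for the luminal, basal and stem-like members and for the 3 lists of further genes, with siL1 above siL2 in each pair. The further luminal genes show 10 higher and 0 lower with siL1 and 4 of each with siL2. Of the 25 further basal genes, 13 are higher and 5 lower with siL1, and 14 higher and 1 lower with siL2. The 13 include CNN1, whose rise was built in. The lists were chosen with earlier results of these data known. Over all tested genes, 50.4% passed with siL1 (24.7% higher, 25.7% lower) and 45.8% with siL2 (22.6% higher, 23.3% lower).

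The authors' deposited table gives its own fold changes and adjusted p-values. At 0.05 it calls 10 of the 11 members called here with siL1, in the same direction, the exception being KRT8 with adjusted p = 0.0669 in the authors' deposited table. With siL2 the authors' deposited table calls 10 of 11 as well, the exception being GATA3 at adjusted p = 0.216. The authors' deposited table calls no member that was not called here.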

How the data were processed

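Total RNA of 6 samples was sequenced on Illumina libraries, per the labels' protocols. The submitters' processing notes name TopHat 1.3.3, HTSeq, DESeq and the build hg19; their settings, the annotation and the strandedness are not given in the sources used here, so reads of antisense or overlapping genes cannot be told apart. The deposited table holds raw counts per gene symbol for each library, per the file headers, with the authors' fold, a linear ratio over siControl, and the authors' adjusted p-value for each siRNA. From the counts, CPM was computed on library totals, and changes with R 4.3.3 and edgeR 4.0.16: filterByExpr by group, TMM, and glmQLFit on group over all 6 libraries (3 residual degrees of freedom). Of 23368 symbols, 13322 were tested. SDs and SEs rest on n = 2 per group; an SE is the log2 fold change over the square root of F. DESeq2 1.42.0 and limma 3.58.1 served as alternatives. The test was tried on simulated data with known changes, drawn with the same spread for all genes and planted only above a set level. That trial does not speak for members with low counts. Members and lists were chosen with earlier results of these data known. Members above 1 CPM on average or past a threshold are given by library; up to 4 genes per further list are named by smallest p. Shared sequence was found with BLAST 2.17.0 on GENCODE 29 transcripts (at least 95% identity over 100 bases), and motifs in Python 3.11.15. The libraries of each group differed by more than sampling noise, with a chi-square per gene of 3.11 to 3.30. Intervals and floors, set at 3 counts, cover counting error only.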

Additional observations from a re-analysis of the deposited data

Results flagged for a closer look

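The results below are members whose change over siControl differed between siL2 and siL1 by edgeR's test of the difference itself, given as siL2 minus siL1 on the log2 scale. The luminal members were GATA3 (-0.49), MUC1 (1.03), KRT8 (-0.32) and KRT18 (-0.40). The basal members were KRT15 (0.72), FOXC1 (-0.35), CAV2 (0.97), MSN (0.12) and LYN (-1.33). The stem-like members were CD44 (0.30), CD24 (-1.5), ALDH1A3 (-0.53), SOX9 (0.39) and SOX4 (-0.56), and the other keratins were KRT80 (-0.35) and KRT81 (-2.72). KRT81 entered the test only through its siL1 libraries, so that its difference was built in, and it ranged from -3.99 to -2.0 over the runs that left out a library. With DESeq2 the MUC1, GATA3 and MSN differences did not pass (adjusted p = 0.135, 0.126 and 0.0549). Some differences lost their call when a library was left out. MUC1 did so without siL1 replicate 1 (0.68) or siL2 replicate 2 (0.88). GATA3 did so without siL1 replicate 2 (-0.42) or either siL2 library (-0.49 for each). MSN did so without siL1 replicate 2 (0.09) or siL2 replicate 1 (0.06). SOX4 did so without siL1 replicate 1 (-0.41) or siL2 replicate 2 (-0.47). MUC1 and SOX4 passed in neither comparison with siControl. KRT8 and CD24 passed in both comparisons with siControl with opposite signs.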

How the results depend on the processing

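Scaling by DESeq2's size factors or the upper quartile, no count filter, 1 CPM in 2 libraries, DESeq2, limma-voom, the replicate number as a block, fits of only the groups compared and leaving out each library gave 792 values for single members, of which 749 kept their direction and side of the threshold, 24 lost and 9 gained the threshold. The 10 that reversed had not passed to begin with. Adding CD24, ELF5 and KIT to the luminal class and CD44 to the basal class gave 5 luminal members that differed between the siRNAs. KRT81 had no value at the 1 CPM filter, nor, for comparisons with siL2, under DESeq2, and against siControl in the fit of those groups alone. Over the runs that left out a library, KRT7 with siL1 ranged from -0.01 to 0.17 (negative without siL1 replicate 1), LYN with siL1 from -0.1 to 0.01 (positive without siControl replicate 1) and MYB with siL2 from -0.01 to 0.46 (negative without siL2 replicate 1). MSN with siL2 ranged from -0.07 to 0.04 and was 0.00 with upper quartile scaling. KRT81 with siL2 ranged from -1.13 to 1.02 and was -0.02 with limma-voom, and SOX9 with siL2 ranged from -0.02 to 0.08. The number of luminal members that differed between siL2 and siL1 was 2 with DESeq2, which did not call GATA3 (adjusted p = 0.126) or MUC1 (0.135) (nor, among basal members, MSN), and 2 to 4 over the runs that left out a library, with 2 without siL2 replicate 2; the cause was not tested.

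The fit with the replicate block called 8036 genes with siL1, 7610 with siL2 and 7700 between them, against 6712, 6106 and 6240 without it. The labels do not tie the numbers to a batch, and the differences between replicates correlated between groups at 0.114 to 0.194. Under the block, KRT18, FOXC1 and ALDH1A3 also passed as lower with siL1 (adjusted p = 0.00871, 0.0272 and 0.0292), SOX4 with siL2 and FOXA1 between the siRNAs. A group of 2 libraries, and counts of 10 to 34 per library for MUC1, limit what can be seen; where a library was left out, the lone library of its group was assumed to vary like the others.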
